A study of Mus musculus with 30 samples.

Results

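The comparison described here is the response of C57BL/6 (B6) mouse liver to iron withdrawal. B6 mice fed an iron-deficient diet, with less than 3 mg of iron per kg, were set against B6 mice fed an iron-balanced diet with 200 mg per kg. Members were chosen by array label alone: 5 deficient and 5 balanced livers, 10 of the 30 arrays in the series, 1 mouse per array. The other 20 arrays hold an iron-enriched B6 group (8.3 g of iron per kg) and the same 3 diets in DBA/2 (D2) mice. B6 is an inbred laboratory strain. The labels give no mutation, transgene or drug for any group, and none of the sources used here gives sex, age or length of feeding. The titles carry a different animal code for each array, so each value is 1 animal, and the numbers 1 to 5 only name a mouse. The study's title names the BMP ligand gene Bmp6 and the BMP target genes Smad7, Id1 and Atoh8, and the comparison asks how these and all other liver transcripts differ when dietary iron is withdrawn.

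The liver sets the body's iron supply through hepcidin, a peptide hormone that makes cells destroy ferroportin, the only known iron exporter. When iron is plentiful, BMP6 from liver endothelial cells binds BMP receptors and the coreceptor hemojuvelin on hepatocytes. SMAD proteins then enter the nucleus and switch on the hepcidin gene Hamp together with Id1, Smad7 and Atoh8. A second system, the iron regulatory proteins, acts after transcription: in iron-poor cells these proteins bind iron responsive elements, stabilise the transferrin receptor mRNA and hold back ferritin translation.

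Signals are processed spot intensities, quantile normalized and given as log2. The share of probes well above background was 63.1% to 78.8% on balanced and 67.8% to 76.9% on deficient arrays. Among 9 tested hepatocyte markers limma called 0 (0 at an unadjusted p under 0.05), and the median log2 difference was -0.0015. That median gene was Alb, which encodes the main plasma protein, with a 95% interval of -0.18 to 0.18. The first principal component of the 10 arrays (31% of variance) did not part the diets, with balanced mouse 3 at -41.41 and balanced mouse 4 at 56.46. The second component (18%) placed all 5 balanced mice above 0 and all 5 deficient mice below. Scans fell on 3 days: day 2 held 1 balanced and 3 deficient arrays, day 3 held 3 and 2, and day 1 held 1 balanced array. Only 1 of the 8 slides used held both groups.

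Iron deficiency changed a small share of the liver transcriptome, and the 4 genes of smallest p were iron genes. Hamp and its copy Hamp2 fell, Bmp6 fell and the transferrin receptor gene Tfrc rose. Of 21068 genes tested, limma's test called 380 (1.8%) at an adjusted p under 0.05: 236 were higher (1.12%) and 144 lower (0.684%) in deficient livers. An unadjusted p under 0.05 was reached by 2653 of the 21068, by 2686 with slide as a block and by 2844 without normalization between arrays. With 1 B6 mouse left out it was reached by 2288 to 2858. Unadjusted counts of the gene lists below are to be read beside these numbers. Without normalization between arrays the median difference of all genes shifted to 0.104 and 88% of calls were higher, against 62.1% here. Only 34 of the higher and 28 of the lower genes changed at least 2-fold. Among the 380 called genes 257 had no overlap between the 5 values of each group, while over all genes 569 (2.7%) had none, 339 with the deficient values higher (1.61%) and 230 lower (1.09%). The number of calls depended on which arrays and blocks entered the fit. When the 10 arrays were fitted alone 23 genes passed, 65 passed with slide as a block, and 404 when scan day was the block. Leaving out 1 B6 mouse gave 181 to 369 calls; without balanced mouse 5, deficient mouse 3, deficient mouse 4 or deficient mouse 5 the counts were 228, 229, 181 and 228. All 380 genes kept their sign in each of these fits. The 10 arrays alone give the same differences, and the other fits reuse most of the mice in which the genes were called. Kept signs are therefore not independent evidence.

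**Figure D1:**
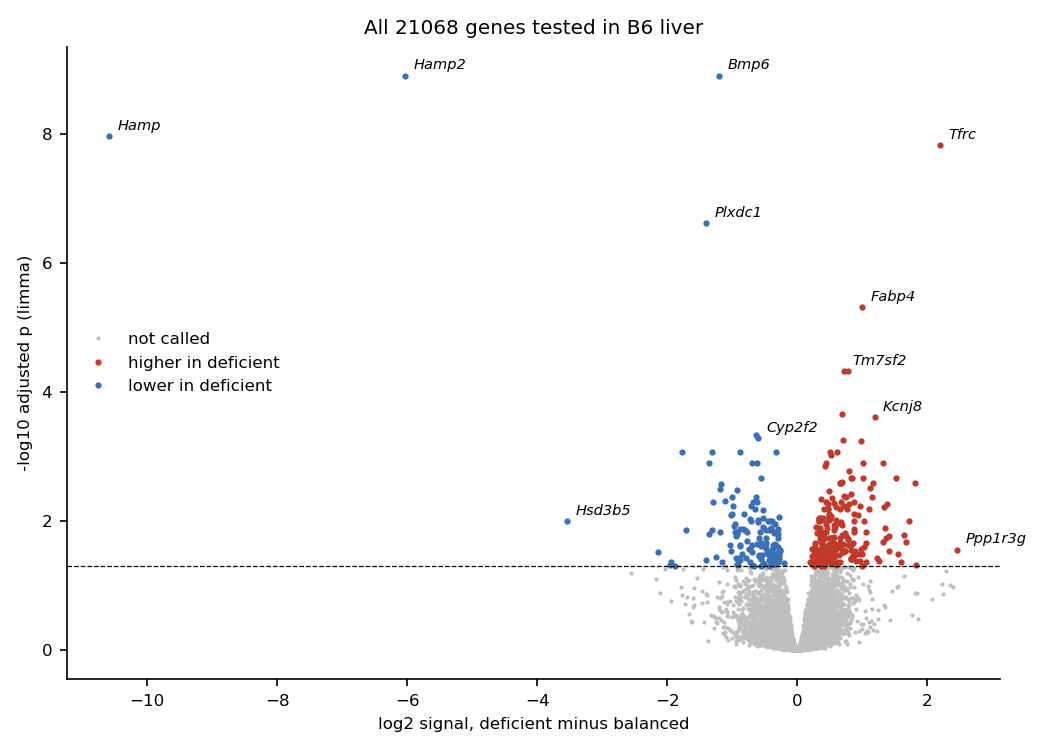
Each point is 1 gene; the x axis is the log2 signal of deficient minus balanced B6 livers and the y axis -log10 of limma's adjusted p, with the dashed line at 0.05. Hamp, Hamp2, Bmp6 and Tfrc stand above all other genes, with Plxdc1 next; most of the 236 red and 144 blue points lie within 2 log2 units of 0.

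The 2 hepcidin genes lie close together on chromosome 7. Their promoters are shown because both genes fell and the sequences are near copies. Each line gives the 250 bases before the start site (RefSeq, GRCm38.p6, minus strand): chr7:30944030-30944279 for Hamp and chr7:30924182-30924431 for Hamp2. Capitals mark GGCGCC, the core of the BMP responsive element, searched on both strands.
Hamp: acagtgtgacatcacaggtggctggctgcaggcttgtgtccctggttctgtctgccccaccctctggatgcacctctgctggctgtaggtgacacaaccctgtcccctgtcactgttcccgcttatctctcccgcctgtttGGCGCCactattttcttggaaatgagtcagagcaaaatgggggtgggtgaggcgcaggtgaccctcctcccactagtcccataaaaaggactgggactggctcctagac
Hamp2: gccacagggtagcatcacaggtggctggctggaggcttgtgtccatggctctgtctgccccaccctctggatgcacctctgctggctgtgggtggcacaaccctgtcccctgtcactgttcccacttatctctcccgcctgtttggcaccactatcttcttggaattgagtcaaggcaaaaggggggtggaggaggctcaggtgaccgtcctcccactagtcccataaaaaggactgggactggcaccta
Hamp holds the motif once, at -109 from the start site. With the next 50 bases included and aligned over 297 bases, the promoters share 276 (92.9%). At the aligned place in Hamp2, -106, the motif carries the substitution G4A, counted from 1 at the motif's first base with the Hamp base first, so the letters GGCGCC are absent there. The motif occurs in 13.4% of the 27025 genes with a promoter window. A match is a description of letters only.

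Hamp, which encodes hepcidin itself, lost nearly all of its signal. In balanced mice 1 to 5 its log2 signal was 15.91, 15.23, 15.94, 16.82 and 15.95, and in deficient mice 1 to 5 it was 9.27, 4.03, 4.33, 4.97 and 4.30. The groups did not overlap, and deficient mouse 1 kept far more Hamp signal than the other 4 deficient mice, which lay near the floor of 3.92. The log2 difference was -10.59 (limma SE 0.85, adjusted p = 1.07e-08), leaving 0.0649% of the balanced level. The probe was well above background on all 5 deficient arrays. Without deficient mouse 1 the difference was -11.56, and with slide as a block it was -9.44. Within scan day 2 it was -11.38 and within scan day 3 it was -9.35.

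Hamp2, a second hepcidin gene of mice, fell less on this scale. Balanced mice read 12.94, 13.24, 13.31, 13.38 and 14.29, and deficient mice 8.11, 7.97, 7.03, 7.09 and 6.78, with no overlap. Its log2 difference was -6.03 (SE 0.43, limma adjusted p = 1.23e-09), or 1.53% of the balanced level. Deficient mouse 1 again had the highest value of its group. Their transcripts are near copies, and how far each probe also binds the other transcript is unknown, which leaves the level of each gene uncertain.

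Bmp6, the ligand of the pathway, was the most tightly measured of the title genes. Balanced livers read 9.35, 9.57, 9.42, 9.46 and 9.42, and deficient livers 8.10, 8.24, 8.23, 8.37 and 8.31. All deficient values lay below all balanced values, and the values within each group lay close together. Bmp6 fell by 1.20 (SE 0.08, limma adjusted p = 1.23e-09), to 43.6% of the balanced level. A second, dimmer Bmp6 probe gave -0.90. The difference was -1.14 with slide as a block and -1.21 when scan day was the block.

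Of the 3 BMP target genes in the title, 1 passed the test. Atoh8, a transcription factor gene, read 9.19, 9.37, 9.83, 8.99 and 8.98 in balanced livers and 8.81, 7.68, 8.30, 8.45 and 8.34 in deficient livers. No values overlapped, and Atoh8 fell by 0.96 (SE 0.20, limma adjusted p = 0.0109). That call was not made with slide as a block (-0.81, adjusted p = 0.122) or in the 10 arrays alone (adjusted p = 0.16). Id1, an inhibitor of DNA binding, read 9.79, 10.64, 10.23, 10.23 and 10.03 against 8.55, 9.36, 9.42, 9.66 and 9.37. Its groups did not overlap either, but the difference of -0.92 (SE 0.31) had a limma adjusted p of 0.152 and was not called; a second Id1 probe gave -0.94. Smad7, the inhibitory SMAD that closes the feedback loop, read 9.00, 9.95, 9.75, 10.04 and 9.78 against 9.00, 8.71, 9.14, 9.00 and 8.97. Balanced mouse 1 sat within the deficient range, and the difference was -0.74 (SE 0.22, limma adjusted p = 0.0809). Without balanced mouse 1 Smad7 passed at -0.92 (limma adjusted p = 0.023). The study chose these title genes on these samples, so their direction is not independent evidence.

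**Figure D2:**
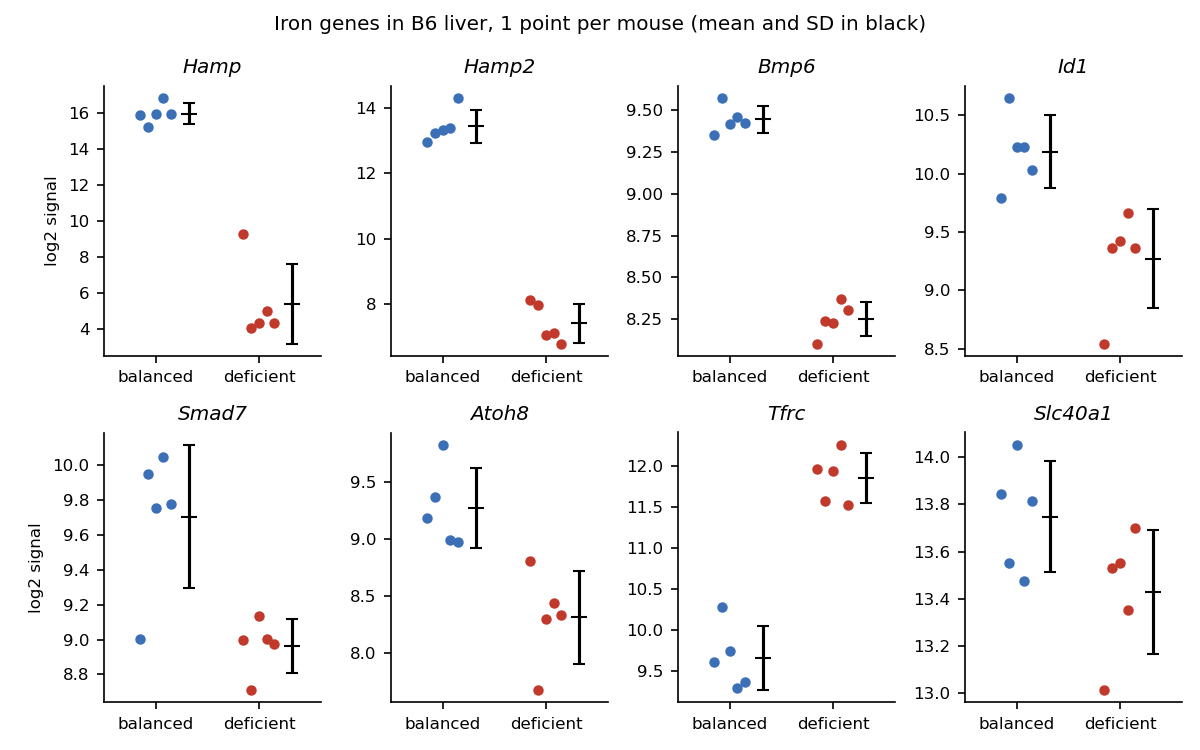
Log2 signal of 8 iron genes in 5 balanced (blue) and 5 deficient (red) B6 livers, 1 point per mouse in the order 1 to 5, with the mean and SD in black; each panel has its own y axis. Hamp in deficient mouse 1 (9.27) stands apart from the other deficient mice, Smad7 in balanced mouse 1 (9.00) lies among the deficient values, and the ferroportin gene Slc40a1 overlaps between diets.

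No other member of the BMP pathway lists passed. Among 18 tested BMP and TGF-beta ligands and antagonists the median log2 difference was 0.37, against 0.0059 over all genes, and 12 were positive. An unadjusted p under 0.05 was found for 6 of these 18 and for 2653 of all 21068 genes. Gdf2, which encodes BMP9, gave 0.47 (limma adjusted p = 0.0984), with balanced livers at 10.07 to 10.42 and deficient livers at 10.58 to 10.92. All 12 tested receptors and sensors stayed between -0.15 and 0.11, and 0 had an unadjusted p under 0.05 by limma. They include the receptors Bmpr1a (0.09) and Acvr1 (0.11), the hemojuvelin gene Hjv (-0.10), the hemochromatosis gene Hfe (0.11), the transferrin sensor Tfr2 (-0.08) and the protease gene Tmprss6 (-0.07), whose product cuts hemojuvelin. The 95% interval was -0.35 to 0.14 for Hjv and -0.20 to 0.04 for Tfr2. Erfe, the erythroid hormone gene that lowers hepcidin, was on the array but its signal was too low to be tested. Among 17 SMAD transducers and other BMP targets limma called 0, though 6 had an unadjusted p under 0.05; Id3, a relative of Id1, had values that did not overlap (10.99 to 12.01 balanced, 10.30 to 10.95 deficient) and a difference of -0.90 (limma adjusted p = 0.126). Without balanced mouse 3, 1 of the 17 was called higher.

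Tfrc, which encodes the receptor that takes up transferrin-bound iron, was higher in every deficient liver. Balanced mice read 9.61, 10.28, 9.74, 9.29 and 9.37, and deficient mice 11.96, 11.57, 11.94, 12.26 and 11.53. The groups lay far apart, with the highest balanced value in mouse 2. The difference was 2.20 (SE 0.18, limma adjusted p = 1.48e-08), a 4.59-fold rise. Slc11a2, the gene of the iron importer DMT1, was called higher by its brightest probe (0.44, limma adjusted p = 0.0109), while its other probes gave -0.00088 and -0.0077. The probes of Slc11a2 therefore disagree, and the call was lost with slide as a block (adjusted p = 0.145). These 2 genes were the only calls among 27 genes of iron uptake, transport and storage (median -0.0048).

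No gene of iron export or storage was called by its brightest probe. The ferroportin gene Slc40a1 read 13.84, 13.55, 14.05, 13.47 and 13.82 against 13.01, 13.53, 13.55, 13.35 and 13.70, a difference of -0.32 with overlapping groups (limma adjusted p = 0.289). Ferritin heavy chain (Fth1) gave 0.10 and light chain (Ftl1) 0.10, both uncalled, though Fth1 values did not overlap (18.00 to 18.02 balanced, 18.04 to 18.21 deficient). The serum transferrin gene Trf gave 0.18 (limma adjusted p = 0.2) and the ferritinophagy receptor gene Ncoa4 gave -0.44 (limma adjusted p = 0.103). The 3 Ncoa4 probes ran from -0.44 to -0.55, and the probe at -0.55 passed (limma adjusted p = 0.0391 over all probes). Scara5, a ferritin receptor gene, spanned 4.90 to 9.86 in balanced livers alone, so its difference of -1.66 was not resolved (limma adjusted p = 0.271).

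Among 17 iron regulatory proteins and transcripts with iron responsive elements, 3 were called higher and 1 lower, against 1.12% and 0.684% over all genes. Besides Tfrc and Slc11a2 the higher call was Cdc14a, a phosphatase gene (0.47, limma adjusted p = 0.0322). Its dimmer probe gave -0.58, the median over probes gave -0.057, and the call was kept without balanced mouse 1 or 2 or deficient mouse 2 but lost without any other single mouse and with slide as a block (adjusted p = 0.0919). The lower call was Alas2, the erythroid form of the first enzyme of heme synthesis: balanced livers read 12.71, 12.08, 12.46, 12.87 and 12.29 and deficient livers 11.71, 11.83, 10.96, 11.84 and 12.10. Only balanced mouse 2 and deficient mouse 5 overlapped. Alas2 fell by 0.79 (SE 0.17, limma adjusted p = 0.0137; 0.125 with slide as a block). Alas2 was also the only call among 13 heme synthesis genes and among 10 erythroid transcripts, where 8 of 10 were negative with a median of -0.12 (5 of 10 with slide as a block); Hba-a1, an alpha globin gene, gave -0.47 (limma adjusted p = 0.359). In bulk liver, fewer cells of a type and less RNA per cell cannot be told apart. Alas1, the liver's own form of the enzyme, gave 0.17 (limma adjusted p = 0.872).

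Few transcripts of other processes that use iron were called. Among 23 genes of iron-sulfur cluster assembly, 1 was called: Iscu, the scaffold protein gene, fell by 0.19 (limma adjusted p = 0.0436), with balanced values of 14.31 to 14.39 and deficient values of 14.09 to 14.25. Iscu kept its call without deficient mouse 1 or 5 but lost it without any other single mouse, and with either slide (adjusted p = 0.235) or scan day (adjusted p = 0.0571) as a block. By limma, 0 of 25 respiratory chain subunits, 0 of 22 iron and 2-oxoglutarate dioxygenases and 0 of 15 genes of heme breakdown passed, with medians of -0.014, -0.025 and -0.0011; 1, 1 and 2 of them had an unadjusted p under 0.05, and 1 heme breakdown gene was called higher without balanced mouse 2. Of 23 hypoxia response genes, Ankrd37 alone was called; without balanced mouse 1 or deficient mouse 2 the count was 2. This hypoxia-inducible ankyrin gene read 5.14, 6.95, 6.40, 6.10 and 5.94 against 7.01, 7.64, 8.95, 7.94 and 8.06, without overlap, and rose by 1.81 (SE 0.32, limma adjusted p = 0.00257; 0.0907 with slide as a block). The list's median was 0.056, with differences from -0.52 to 1.81, 15 of them positive and 8 negative. Among its uncalled members Vegfa gave -0.10, Ldha 0.05 and Adm 0.04. Hilpda, a hypoxia-induced lipid droplet gene, gave 0.68 without overlap (limma adjusted p = 0.0729).

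After Tfrc, the largest rises without overlap between diets had no single shared role, and Ankrd37 among them is given above. Ppp1r3g, Nsdhl and Cyp51, whose groups overlapped, are given with their gene groups. Pdk4, a kinase that turns glucose oxidation down, read 10.63, 10.57, 11.46, 10.10 and 10.71 against 11.95, 12.27, 12.65, 12.02 and 12.22, and rose by 1.53 (limma adjusted p = 0.00216). Its call held with slide as a block (adjusted p = 0.0359). Lepr, the leptin receptor gene, read 10.16 to 11.70 in balanced and 11.91 to 12.61 in deficient livers, a rise of 1.38 (limma adjusted p = 0.00537). Aldh1a3, a retinaldehyde dehydrogenase gene, rose by 1.33, from 6.39 to 6.77 in balanced livers to 7.24 to 8.40 in deficient livers (limma adjusted p = 0.00123). Hhip, which encodes a hedgehog-binding protein, rose by 1.34, and Kiss1, the kisspeptin gene, by 1.36. Kcnj8, a potassium channel subunit gene, read 9.38 to 10.02 against 10.41 to 11.17 and rose by 1.19 (limma adjusted p = 0.000243). The other large rises were Sybu (1.72), Sult3a1 (1.68), Pde6c (1.38), Bex4 (1.12), the ephrin receptor gene Epha4 (1.11; 0.25 by its other probe), Nt5e (1.06), which makes adenosine outside cells, and Elovl7 (1.03; 0.09 by its other probe). Of these, with slide as a block Pdk4, Aldh1a3, Kcnj8 and Bex4 kept their calls and the other 9 did not. Leaving out 1 mouse ended the call of Sult3a1 (without deficient mouse 2 or 3), Pde6c (balanced 3, deficient 2 or 5), Nt5e (deficient 3 or 4) and Elovl7 (balanced 3 or 4, deficient 3, 4 or 5).

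The largest falls outside the iron genes were also spread over many roles. Plxdc1, a cell surface gene of blood vessels, read 7.27, 7.91, 8.04, 7.39 and 7.94 in balanced and 6.07, 6.54, 6.30, 6.17 and 6.44 in deficient livers. The groups did not overlap, and Plxdc1 fell by 1.40 (SE 0.13, limma adjusted p = 2.39e-07). Its difference was -1.24 with slide as a block (adjusted p = 0.000919). Tiam2, a regulator of Rac, fell by 1.77 (limma adjusted p = 0.000845), Crygn, a crystallin gene, by 1.30, and Ntn4, a netrin gene, by 1.10. Srd5a1, which encodes a steroid reductase, fell by 1.36, with 4 balanced values between 13.97 and 14.50 and deficient values between 12.11 and 13.29; balanced mouse 1 had no usable spot and was left out of that gene's fit. Ly6a, an interferon-inducible surface antigen gene, fell by 1.30, and Gucy2c, a guanylate cyclase receptor gene, by 1.03. Sds, which turns serine into pyruvate, read 15.09, 14.44, 14.37, 15.08 and 14.58 against 14.16, 13.79, 13.47, 13.43 and 13.59, a fall of 1.02 (limma adjusted p = 0.00797). Cd248 (-1.35) was contradicted by its other probe (-0.0016). Crxos (-1.94) lost its call without balanced mouse 1, 4 or 5 or deficient mouse 2, 3, 4 or 5, Gucy2c without balanced mouse 4 or 5 or deficient mouse 3 or 4, and Cd248 without deficient mouse 3. With slide as a block Plxdc1, Tiam2, Crygn, Ntn4 and Srd5a1 kept their calls, and Crxos, Cd248, Ly6a, Gucy2c, Sds and Hsd3b1 did not. Hsd3b1 (-1.17) belongs to a family of near-identical genes, so its separate level is uncertain.

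**Figure D3:**
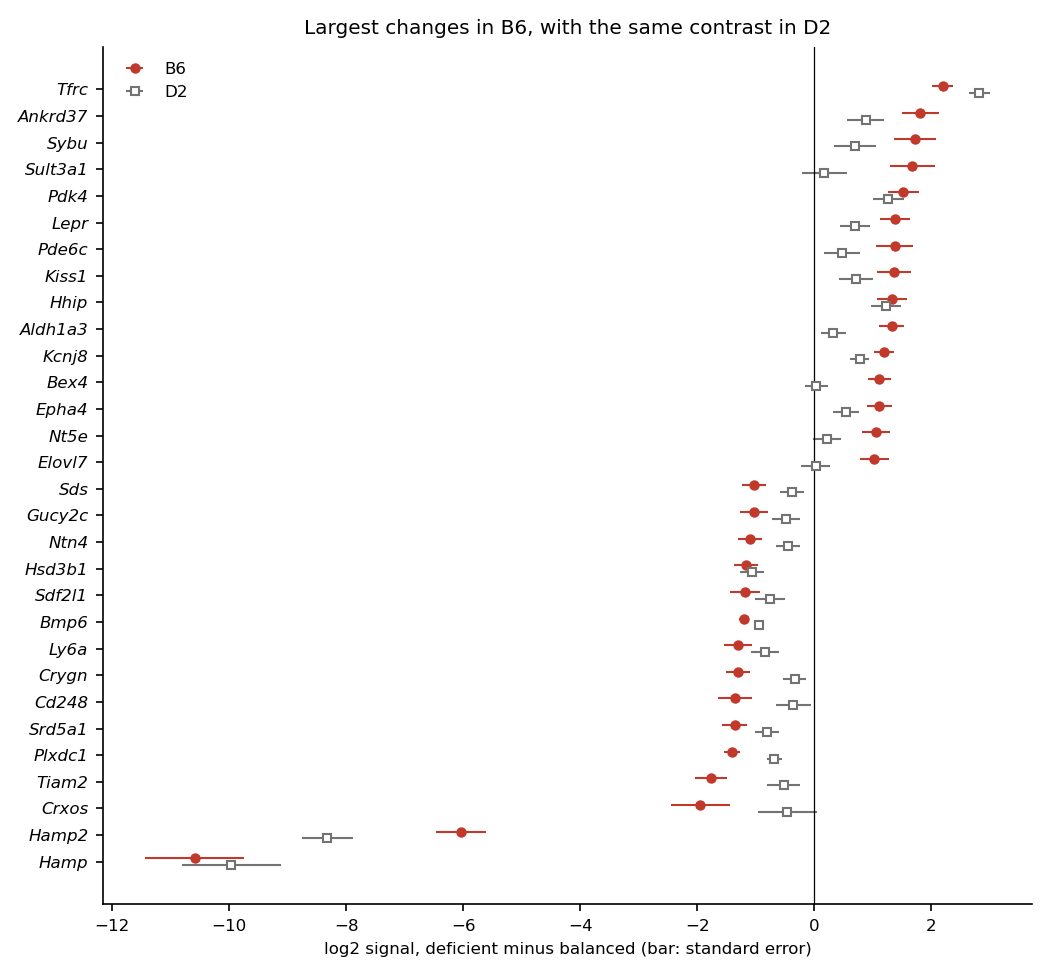
Log2 signal of deficient minus balanced livers for the 15 largest rises and 15 largest falls in B6 among called genes whose values did not overlap (red circles), with the same contrast in D2 (open squares); bars are limma's standard errors. The genes were chosen for their size in B6, which favours larger B6 values; Tfrc, Pdk4, Hhip, Bmp6, Hsd3b1, Hamp and Hamp2 are far from 0 in both strains.

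The unfolded protein response is the program that supplies chaperones and folding enzymes to the endoplasmic reticulum. Of its 19 tested genes, 5 fell in deficient livers, 0 rose and 14 did not pass, against 0.684% called lower over all genes, and all 19 differences were negative with a median of -0.47 (18 without normalization between arrays, where 1 gene was called). Sdf2l1, a chaperone cofactor gene, read 10.68, 10.75, 10.70, 10.59 and 11.93 in balanced and 9.68, 9.61, 10.32, 9.75 and 9.37 in deficient livers. The groups did not overlap, balanced mouse 5 was high, and Sdf2l1 fell by 1.18 (SE 0.26, limma adjusted p = 0.0145). The disulfide isomerase gene Pdia6 read 14.65, 14.92, 14.90, 14.50 and 15.10 against 14.08, 14.18, 14.41, 14.17 and 14.25 and fell by 0.60 (limma adjusted p = 0.0101). Calr, a calcium-binding chaperone gene, fell by 0.55, Dnajb11, a cochaperone gene, by 0.48, and Pdia4, another isomerase gene, by 0.47. Derl3 (-1.54) and Manf (-0.74) had values that did not overlap and limma adjusted p of 0.0762 and 0.0501. The central chaperone gene Hspa5 gave -0.39 (limma adjusted p = 0.284). With slide as a block 0 of the 19 passed by limma (13 had an unadjusted p under 0.05), the 5 called genes having adjusted p from 0.0601 to 0.144, while all 5 passed when scan day was the block. The count was 2 without balanced mouse 5, deficient mouse 2 or deficient mouse 5, and 4 to 6 without any other single mouse. Calr also lost its call without balanced mouse 1, and Pdia4 without balanced mouse 2 or 3 or deficient mouse 1 or 4.

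Letter patterns were counted in the promoters of these listed genes. Of 17 with a RefSeq window, 16 (94.1%) held CCAAT on either strand, against 41.1% of all genes. The letters CCAAT followed after 9 bases by CCACG, the layout of the endoplasmic reticulum stress response element, were in 8 of 17 windows (47.1%) and in 37 of 27025 (0.137%) over all genes. That spacing was searched after the other motif shares had been seen. The list holds genes picked as members of this pathway, so these shares describe the list and test nothing about the diet. Among the 5 called genes Pdia6 and Calr held it, and Sdf2l1, Dnajb11 and Pdia4 did not. The 60 bases around it are shown with both parts in capitals, at chr12:17266471-17266530 (plus strand) for Pdia6 and chr8:84847054-84847113 (minus strand, reversed pattern) for Calr.
Pdia6: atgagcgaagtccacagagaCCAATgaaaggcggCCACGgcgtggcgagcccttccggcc
Calr: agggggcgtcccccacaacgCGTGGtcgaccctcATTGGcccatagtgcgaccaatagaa
Other genes with the pattern were Hspa5, Hsp90b1, Canx, Dnajc3, Creld2 and Derl3, none of them called.

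Interferon response genes leaned lower, with few single calls. All 25 tested had a negative difference, with a median of -0.52 against 0.0059 over all genes. Without normalization between arrays 24 were negative, limma called 0 and 12 had an unadjusted p under 0.05. In the main fit 2 fell, where 0.684% of all genes were called lower. Irf7, a transcription factor of the interferon system, read 10.64, 10.01, 10.12, 9.74 and 9.96 against 9.25, 9.63, 9.49, 9.36 and 9.40, and fell by 0.67 (limma adjusted p = 0.0491). Oasl1, an antiviral gene, read 10.09, 10.08, 9.94, 9.13 and 9.99 against 9.29, 8.71, 9.03, 8.93 and 8.50, and fell by 0.95 (limma adjusted p = 0.0148). Balanced mouse 4 overlapped the deficient mice for Oasl1, and it was the lowest balanced mouse for the list as a whole: the list's median relative to the balanced mean was -0.61 in that mouse, -0.70 to -0.42 in deficient mice and 0.02 to 0.26 in the other balanced mice. Without balanced mouse 4 the count of calls was 11, without deficient mouse 5 it was 0 (16 at an unadjusted p under 0.05), and without any other single mouse it was 1, Irf7 being the gene lost. It was 5 with scan day as a block, and with slide as a block it was 1, where Oasl1 had an adjusted p of 0.105. The core of the interferon stimulated response element (GAAA, any 2 bases, GAAA) was in 11 of 20 promoter windows of the list (55%) and in 4.0% of all genes. The windows of Irf7 and Oasl1 did not hold these letters. The list was picked as interferon response genes, so this share describes the list and tests nothing about the diet. In the acute phase list, which follows inflammation, 0 of 25 genes passed by limma (median -0.013, 6 at an unadjusted p under 0.05), with Saa1 at -0.78 (limma adjusted p = 0.0762); 3 were called lower without balanced mouse 2 and 1 higher without balanced mouse 1.

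Of 21 cholesterol synthesis genes tested, 4 rose in deficient livers, 0 fell and 17 did not pass, against 1.12% called higher over all genes. Differences were positive for 20, and the median was 0.61 against 0.0059 over all genes. Tm7sf2, a sterol reductase gene, was the tightest: 14.38, 14.10, 14.48, 14.23 and 14.44 in balanced and 14.77, 15.21, 15.07, 15.04 and 15.18 in deficient livers. It rose by 0.73 (SE 0.09, limma adjusted p = 4.71e-05) without overlap. Nsdhl, a sterol dehydrogenase gene, read 8.83, 8.23, 8.60, 9.47 and 8.14 against 9.07, 10.53, 10.30, 10.37 and 11.26, with deficient mouse 1 below balanced mouse 4, and rose by 1.65 (limma adjusted p = 0.0165; 0.69 to 1.73 by its other 3 probes). Cyp51, lanosterol demethylase, rose by 1.55 (limma adjusted p = 0.0326), and Hsd17b7, another sterol reductase gene, by 0.98 (limma adjusted p = 0.0266). The squalene epoxidase gene Sqle had a larger difference (2.23) but spanned 8.06 to 11.65 in balanced livers (limma adjusted p = 0.0941).

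The cholesterol calls depended on single mice. Relative to the balanced mean, the list's median was 0.75 in balanced mouse 4 and -0.35 to 0.12 in the other balanced mice, and it was -0.16 in deficient mouse 1 and 0.48 to 1.49 in the other deficient mice. Without deficient mouse 1 the count was 9, and without balanced mouse 4 it was 7. It was 1, Tm7sf2, without balanced mouse 5 or without deficient mouse 5, 2 without balanced mouse 2 or 3 or deficient mouse 3 or 4, and 3 without deficient mouse 2. Tm7sf2 was also the one call with slide as a block. Of 17 genes of sterol uptake and control only Npc1, a cholesterol transporter of lysosomes, was called (0.41, limma adjusted p = 0.0445; 0.103 with slide as a block and 0.0637 with scan day as a block), and its call was kept without balanced mouse 1 or 2 or deficient mouse 2 but lost without any other single mouse. Srebf2, a transcription factor gene of sterol control, gave 0.42 and was not called.

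CCAAT boxes were found in 15 of 16 cholesterol synthesis promoters with a window (93.8%), against 41.1% of all genes, while the sterol element core TCACNCCAC was in 1 of 16 (6.2%) and in 1.4% of all. These shares describe a list picked by pathway and test nothing about the diet. The stretches below are those around the first CCAAT, on either strand and in capitals, of the 4 called genes. They lie at chrX:72918386-72918445 (plus) for Nsdhl, chr5:4104693-4104752 (minus) for Cyp51, chr1:169969337-169969396 (minus) for Hsd17b7 and chr19:6067864-6067923 (minus) for Tm7sf2.
Nsdhl: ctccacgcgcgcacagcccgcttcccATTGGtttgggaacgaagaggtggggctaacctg
Cyp51: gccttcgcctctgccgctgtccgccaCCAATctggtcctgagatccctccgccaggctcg
Hsd17b7: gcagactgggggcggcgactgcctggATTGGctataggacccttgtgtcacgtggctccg
Tm7sf2: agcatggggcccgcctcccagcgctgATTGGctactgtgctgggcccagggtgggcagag

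**Figure D4:**
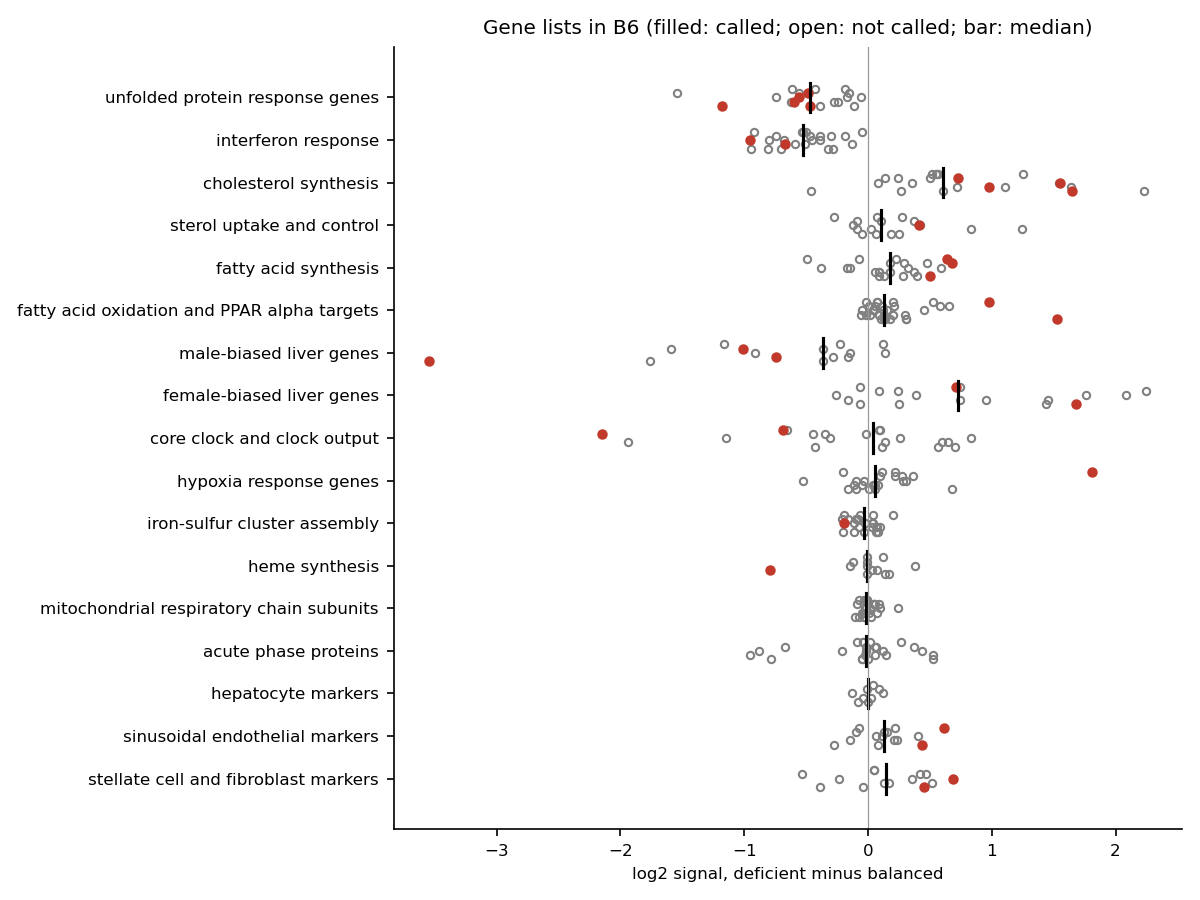
Log2 signal of deficient minus balanced B6 livers for the tested members of 17 gene lists; filled red points were called by limma, open points were not, and black bars are list medians. The unfolded protein response and interferon lists lie wholly below 0, and all but 1 of the cholesterol synthesis genes lie above it.

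Lipid and glucose metabolism showed smaller shifts. Of 23 fatty acid synthesis genes 3 rose, against 1.12% over all genes: the desaturase gene Fads1 (0.68, limma adjusted p = 0.005; balanced 13.15 to 13.54, deficient 13.62 to 14.18), the elongase gene Elovl6 (0.64) and malic enzyme Me1 (0.50). Fads1 had an adjusted p of 0.0502 with slide as a block. Elovl6 and Me1 lost their calls there and without balanced mouse 1 or 4 or deficient mouse 5; Elovl6 also without balanced mouse 3 or 5 or deficient mouse 2 or 3, and Me1 without balanced mouse 2 or deficient mouse 4. Among 32 genes of fatty acid oxidation and PPAR alpha targets, 28 differences were positive with a median of 0.13, and 2 were called: Pdk4, given above, and the thioesterase gene Acot2 (0.97, limma adjusted p = 0.0408; 0.135 with slide and 0.0584 with scan day as a block), which was kept without balanced mouse 2 or 3 or deficient mouse 1 and lost without any other single mouse. Plin2, which coats lipid droplets, gave 0.59 without overlap (16.07 to 16.67 against 16.89 to 17.26, limma adjusted p = 0.0587). Of 21 genes of glucose output and glycogen, Sds fell and Ppp1r3g rose. Ppp1r3g, a glycogen targeting subunit that follows feeding, read 10.10, 9.83, 10.44, 11.65 and 9.32 against 13.58, 12.11, 10.66, 14.31 and 13.02. Deficient mouse 3 fell inside the balanced range, and the difference was 2.47 (SE 0.59, limma adjusted p = 0.0275; 3.07 and adjusted p = 0.0668 with slide as a block), lost without balanced mouse 2 or 5 or deficient mouse 1, 4 or 5. Pck1 (-0.08) and G6pc (0.63), the enzymes of glucose output, were not called. The bile acid and organic anion carrier gene Slco1a4 rose by 0.88 (limma adjusted p = 0.0342; 1.23 and adjusted p = 0.00923 with slide as a block), lost without balanced mouse 2, 4 or 5 or deficient mouse 1, 2, 3 or 4, and was the only call of 22 bile acid genes.

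Genes that differ between male and female mouse liver leaned in opposite directions. Of 15 male-biased genes 3 fell and 0 rose, with a median of -0.36, where 0.684% of all genes were called lower. Of 18 female-biased genes 2 rose and 0 fell, with a median of 0.72, where 1.12% of all genes were called higher and their median was 0.0059. The labels do not state the sex of the mice. Hsd3b5, a male-biased steroid enzyme gene, read 9.69, 10.14, 11.50, 11.91 and 11.26 against 6.63, 9.78, 4.49, 7.60 and 8.27. Deficient mouse 2 overlapped the balanced mice, the deficient values spread widely, and the difference was -3.54 (SE 0.73, limma adjusted p = 0.01), or -4.15 without deficient mouse 2 and -2.83 without deficient mouse 3. C8b, a complement gene, fell by 1.01 without overlap (limma adjusted p = 0.00416), and Nudt7, a coenzyme A hydrolase gene, by 0.75. Sult3a1, a sulfotransferase gene, read 3.92, 4.37, 3.92, 4.58 and 4.43 against 5.86, 6.32, 6.94, 5.48 and 5.01, low signals throughout, with 3 of 5 balanced arrays well above background. Fmo2, a monooxygenase gene, rose by 0.71 (limma adjusted p = 0.0297). The cytochrome genes Cyp2b13 (2.25) and Cyp2b9 (2.08) had large differences that overlapped and were not called (limma adjusted p = 0.134 and 0.16). With slide as a block 0 genes of either list passed by limma, while 9 male-biased and 7 female-biased genes had an unadjusted p under 0.05. Without deficient mouse 2 or 3 the female-biased count was 0 (5 and 6 at an unadjusted p under 0.05). It was 1 (Sult3a1) without balanced mouse 1, 3 or 5 or deficient mouse 4 or 5. The male-biased count was 2 without balanced mouse 4 or deficient mouse 3 or 5, where Nudt7 was lost. Nudt7 also lost its call without deficient mouse 4 (limma adjusted p = 0.0514).

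**Figure D5:**
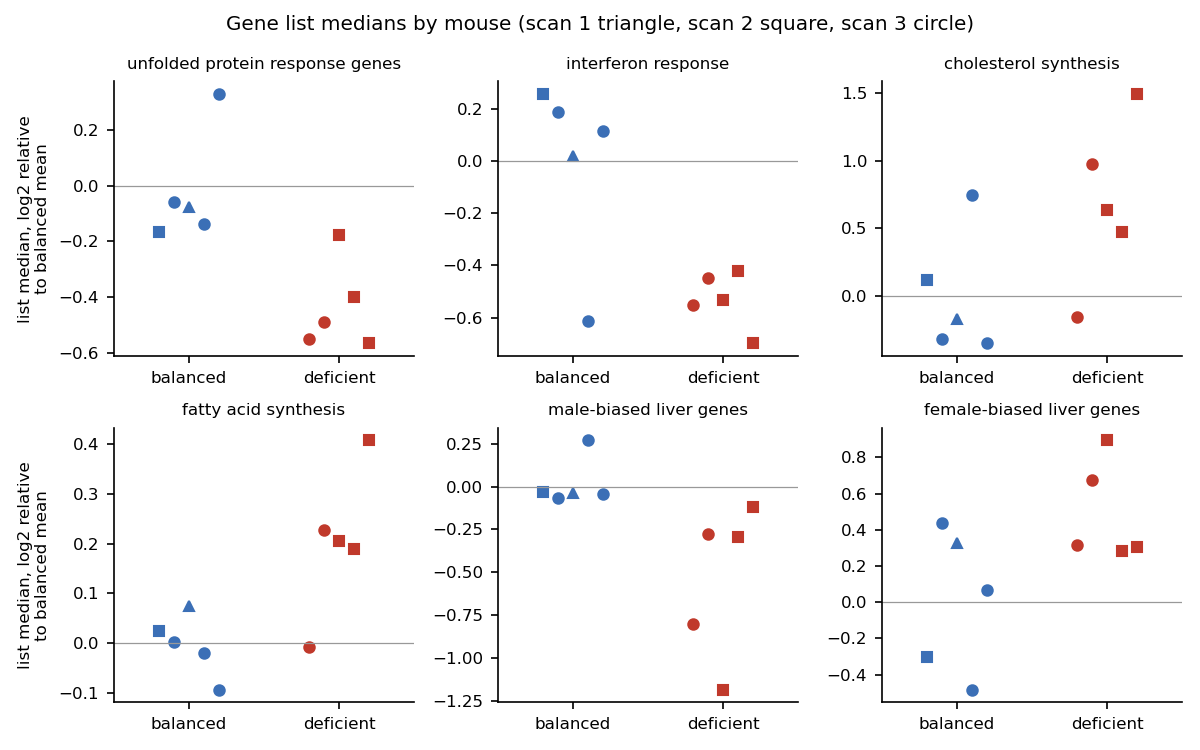
Median log2 signal of the tested members of 6 gene lists in each B6 mouse, relative to each gene's mean over balanced mice; the 5 points per diet are mice 1 to 5 and marker shapes give the scan day. All deficient mice lie below the balanced mice for the unfolded protein response, deficient mouse 3 (-0.18) only just, balanced mouse 4 lies among the deficient mice for interferon genes (-0.61) and high for cholesterol synthesis (0.75), and deficient mouse 1 is low for cholesterol synthesis (-0.16).

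Clock genes, which change over the day, held 2 lower calls among 20, where 0.684% of all genes were called lower. The repressor gene Nr1d1 read 7.90, 9.81, 8.91, 6.22 and 6.75 against 7.15, 4.97, 6.30, 4.89 and 5.54 and gave -2.15 (limma adjusted p = 0.0293), but its other probes gave -0.44 and -0.015. Its relative Nr1d2 gave -0.69 (limma adjusted p = 0.0471; 0.0684 with scan day as a block). The labels do not state the hour of sampling, and its part in these values was not tested. Both calls were absent with slide as a block and without balanced mouse 2 or 3 or deficient mouse 4; Nr1d1 was also lost without deficient mouse 2 or 5, and Nr1d2 without balanced mouse 4 or deficient mouse 1 or 3. Of 24 cell cycle genes 2 rose, against 1.12% over all genes: Mcm2 (0.88), part of the replication helicase, and Ccnd2 (0.35), a cyclin. Both were lost with slide as a block and without balanced mouse 3, 4 or 5 or deficient mouse 1, 3, 4 or 5. Ccnd2 was also lost without balanced mouse 1. Cyp2f2, a cytochrome P450 of periportal liver, read 17.36, 17.51, 17.57, 17.43 and 17.60 against 16.89, 17.11, 16.82, 16.79 and 16.88, and fell by 0.60 (SE 0.09, limma adjusted p = 0.000516; 0.00862 with slide as a block). It was the only call of 30 cytochrome P450 and electron donor genes. Among 22 NRF2 targets, the oxidative stress genes, Tkt rose by 0.34 (0.0512 adjusted p with slide as a block) and Gstp1 fell by 0.78 (0.17 with slide as a block, 0.0544 without deficient mouse 3); without deficient mouse 2 the count called higher was 2. Slc3a2, an amino acid transporter subunit gene, rose by 0.31 (limma adjusted p = 0.015) as the one call of 19 integrated stress response genes; Fgf21, a stress hormone gene, gave 1.05 (limma adjusted p = 0.25). By limma, 0 of 8 metallothionein and zinc transport genes passed (median 0.14, 1 at an unadjusted p under 0.05).

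A few markers of other liver cells rose. Of 15 sinusoidal endothelial markers 2 rose, against 1.12% over all genes. Flt1, a VEGF receptor gene, read 10.91, 10.80, 10.83, 11.10 and 10.99 against 11.60, 11.44, 11.53, 11.52 and 11.62. Its difference was 0.61 (limma adjusted p = 0.000844, and 0.062 with slide as a block), and its other 4 probes gave -0.17 to 0.84. Emcn, an endothelial sialomucin gene, gave 0.43 (limma adjusted p = 0.00139). Stab2 (0.21), Lyve1 (0.40) and Kdr (0.15) were not called, and the summed signal of the list spanned 44319 to 54534 in balanced and 48400 to 55888 in deficient livers. Bmp6 is made largely by these endothelial cells. Of the 15 markers 11 differences were positive and 4 negative, and the part of these cells in the Bmp6 fall was not tested. Fabp4, a fatty acid binding protein gene of capillary endothelium and fat, read 12.24, 11.95, 11.97, 11.67 and 11.97 against 12.97, 12.98, 12.88, 13.16 and 12.81. It rose by 1.0 (SE 0.11, limma adjusted p = 4.71e-06) by all 3 of its probes (0.94 to 1.22). Of 6 tested adipose markers Fabp4 was the only call, 2 differences were positive and 4 negative, and their summed signal was 9866 to 29145 in balanced and 19252 to 51422 in deficient livers. Cidec, a lipid droplet gene also expressed in hepatocytes, gave 1.07 with overlapping groups (limma adjusted p = 0.317). Adipoq, which defines fat cells, gave -1.28 (limma adjusted p = 0.444): it was at the floor of 3.92 in all 5 deficient livers and read 8.02 in balanced mouse 1. Of 14 stellate cell and fibroblast markers 2 rose, against 1.12% over all genes: Reln (0.69, limma adjusted p = 0.0113) and Colec11 (0.45, limma adjusted p = 0.0323). The summed signal of the list, which weighs its brightest members most, did not overlap: 62224 to 77743 in balanced and 80857 to 93788 in deficient livers. The list's median per mouse, relative to the balanced mean, did overlap: -0.19 to 0.33 in balanced and 0.07 to 0.34 in deficient livers. Differences were positive for 10 of the 14 markers and negative for 4. Colec11 kept its call without balanced mouse 2 or 3 or deficient mouse 1 and lost it without any other single mouse, and neither gene passed with slide as a block. The collagen genes Col1a1 (-0.53) and Col3a1 (-0.39) were uncalled. The part of these cells in other results was not tested. No marker was called for macrophages (14), bile duct (7), lymphocytes (12), neutrophils (7), skeletal muscle (8) or pancreas (6) by limma; at an unadjusted p under 0.05 there were 2 for muscle, 1 for pancreas and 0 for the others. Balanced mouse 1 had the highest neutrophil, macrophage and adipose list medians (1.15, 0.61 and 1.34 above the balanced mean). Skeletal muscle markers summed to 801 to 2723 in balanced and 387 to 737 in deficient livers. Their list medians per mouse overlapped, at -0.17 to 0.23 in balanced and -0.49 to 0.03 in deficient livers.

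The D2 strain offers the same contrast in other animals. In D2, 987 genes were called (4.68%), and 115 of the 380 B6 calls were called there in the same direction, 1 in the opposite one; that is 30.5% of the B6 calls and 11.8% of the D2 calls. Of the 380 B6 calls 350 had the same sign in D2, and the matching share over all genes was not counted. The test of the difference between strains called 4 genes (0.019%), and 0 of the 380 B6 calls were among them; 1503 genes had an unadjusted p under 0.05. Leaving out 1 mouse of either strain gave 1 to 7 such genes. Tfrc rose by 2.82 in D2, Bmp6 fell by 0.93, Hamp fell by 9.96 and Hamp2 fell by 8.32, with limma adjusted p for the difference between strains of 0.62, 0.67, 0.97 and 0.35. Smad7, uncalled in B6, was called in D2 (-0.78, limma adjusted p = 0.0353), and its difference between strains had an adjusted p of 0.995. Tm7sf2 gave 0.11 in D2 (limma adjusted p of the difference 0.19). Genes that did differ were Slc16a11, a monocarboxylate transporter relative (0.30 in B6, -0.54 in D2, limma adjusted p = 0.015), Plscr2, a scramblase gene (0.28 and -0.42, limma adjusted p = 0.011), and Kazald1 (-0.02 and -0.61, limma adjusted p = 0.037). The other one is named on the array by a clone only. None of these was called in B6 by its brightest probe. Plscr2 was called there without balanced mouse 1 or deficient mouse 3 (limma adjusted p = 0.0428 and 0.0252). Its other probe gave 0.30 (limma adjusted p = 0.0402 over all probes).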

How the data were processed

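Liver RNA of 30 mice, 1 array each, was labelled with Cy3 and hybridised to whole-genome 4x44K arrays, and RNA integrity was high per the series' design text. Each deposited file is the scanner output of 1 array; the processed spot intensity in it was background-subtracted by Feature Extraction, whose version is 9.5.1 per the labels and 9.1.3.1 per the file headers. The deposited value table repeats these intensities with a largest difference of 0 and was not used further. Signals were quantile normalized between arrays, raised to a floor of 15.1 and put on the log2 scale here; no log2 values were taken from the authors. Outlier-flagged and control spots were left out. Of 41174 probes, 22944 were renamed by accession and 6664 by symbol through RefSeq, and 11566 kept the name in the file. Probes well above background on at least 3 B6 and 3 D2 arrays were kept (29979), and the brightest probe stood for each of 21068 genes (6377 had more than 1). The files name no genome build, so coordinates are given for RefSeq promoter windows alone (GRCm38.p6); 12097 tested genes had one.

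limma (3.58.1, R 4.3.3) fitted 6 group means to all 30 arrays with moderated variances, and p-values were adjusted by Benjamini-Hochberg over all 21068 genes at 0.05. The study's design text names a two-way analysis of variance in R/maanova, which was not run; limma took its place. Intervals are at 95%. The number of arrays, not a read depth, limits precision. Enriched B6 arrays entered the fit but are not described; they would share the balanced arrays with the contrast given here. Counting and promoter searches used Python 3.11.15, pandas 2.3.3 and Biopython 1.88. The fit was tested on simulated data.

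Genes named are the hepcidin and title genes, the 15 largest non-overlapping rises and 15 largest falls with a gene symbol, up to 6 called members of each of 41 lists (31 pathway and 10 cell type lists, 733 entries, 46 not tested), the described iron gene lists, and the leading genes of the test of strain difference. Uncalled members of other lists named as background values, and the spaced promoter pattern, were chosen after their values were seen. The members and lists were chosen with earlier results of these data known. Alternatives varied the normalization, background, filter, floor, probe rule, variance model, the arrays fitted, slide, scan day and single mice.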

Additional observations from a re-analysis of the deposited data

Results flagged for a closer look

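Of 245 groups of 5 values looked at, 19 held a mouse set apart from the other 4 of its diet group by more than 0.71 of the range; chance alone gives about 1 in 20. In iron and BMP genes, Hamp in deficient mouse 1 read 9.27 (the others 4.03 to 4.97), Id1 in deficient mouse 1 read 8.55 (9.36 to 9.66) and Smad7 in balanced mouse 1 read 9.00 (9.75 to 10.04). Acvrl1, a BMP receptor gene, read 7.0 in balanced mouse 1 (5.80 to 6.13). Tfr2 read 16.32 in balanced mouse 3 (16.11 to 16.15), and Fth1 read 18.21 in deficient mouse 5 (18.04 to 18.09). Slc11a1, an iron carrier of macrophages, read 10.52 in deficient mouse 3 (10.24 to 10.30), and Timd2, a ferritin receptor gene, read 11.96 in balanced mouse 1 (12.21 to 12.30). The reductase genes Steap1, at 4.41 in balanced mouse 2, and Cybrd1, at 4.06 in balanced mouse 4, were otherwise at or near the floor of 3.92.

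Among the other named genes, deficient mouse 3 stood apart for Crxos at 5.18 (7.24 to 7.75), Srd5a1 at 12.11 (13.07 to 13.29), Pdia4 at 12.79 (12.40 to 12.46) and Acot2 at 11.68 (10.95 to 11.13). Deficient mouse 1 was low for Fads1 at 13.62 (14.02 to 14.18) and Reln at 11.59 (11.94 to 12.00), and deficient mouse 2 for Mcm2 at 6.75 (7.61 to 7.81). Balanced mouse 5 was high for Sdf2l1 at 11.93 (10.59 to 10.75), and balanced mouse 4 was low for Oasl1 at 9.13 (9.94 to 10.09).

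The effect of deficiency differed between strains by limma's test for Plscr2 (D2 minus B6 -0.70), Slc16a11 (-0.84) and Kazald1 (-0.59).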

How the results depend on the processing

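The count of 380 called genes stayed within 1.5 times under the other normalizations, background, filters, floor, probe rule and variance models (274 to 428) and with scan day as a block (404). It was 23 in the 10 arrays compared alone, 89 in the 15 B6 arrays, 65 with slide as a block, 12 in the arrays of scan day 2, 8 in those of scan day 3, and 181 to 369 without 1 mouse; fewer samples or residual degrees of freedom enter those fits. The within-day fits hold 1 balanced and 3 deficient arrays on day 2 and 3 and 2 on day 3. Of the 380 genes, 133 were called in all 10 fits without 1 B6 mouse and 18 in those 10 fits, the 10 arrays alone and both block fits, among them Hamp, Hamp2, Bmp6, Tfrc, Plxdc1, Fabp4, Tm7sf2, Kcnj8, Cyp2f2 and Aldh1a3. All 380 kept their sign in every alternative except the median over probes (377). On scan day 2, 379 could be estimated and kept it, Srd5a1 having no balanced value there. These fits reuse mice in which the genes were called, and some leave the differences unchanged, so kept signs are not independent evidence. Of the 380, 2 were called within scan day 2 and 7 within scan day 3. Slc11a2 (-0.00088) and Cdc14a (-0.057) reversed with the median over a gene's probes, because their probes disagree.

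The 4 genes that differed between strains became 7 with cyclic loess, 9 with scan day as a block, 2 with robust variances, 311 within scan day 3 and 0 with slide as a block by limma (1704 at an unadjusted p under 0.05); the cause was not tested. Leaving out 1 mouse gave 1 (without D2 balanced mouse 3) to 7 (without B6 balanced mouse 2). No paired analysis was possible because the labels number no replicates and the numbers used here follow the order of the records. Signal over background limits the lowest values: Hamp in 4 deficient livers lay near the floor, so its fold change may be understated.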

Other observations

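The gene groups below were put together after their values had been seen, so their counts describe the genes picked and test nothing. Over all genes 1.12% were called higher and 0.684% lower. A list put together for mural cells, the pericytes and smooth muscle cells around vessels, held 4 rises among 10. They were Kcnj8 (1.19), its channel partner Abcc9 (0.77), Rgs5 (0.88) and Pdgfra (0.76), a gene not particular to mural cells. None of these overlapped between diets: Rgs5 read 9.37 to 9.94 in balanced and 10.32 to 10.65 in deficient livers. The other 6 were not called: Pdgfrb (0.05), Notch3 (-0.31), Cspg4 (-0.12), Angpt1 (-0.22), Rgs4 (0.39) and Vtn (0.01). Platelet genes held 3 rises among 12, Gp9 (1.42), Ppbp (1.32) and Treml1 (0.78), with overlapping groups; Pf4 gave 0.80 (limma adjusted p = 0.0505). For all 3 called platelet genes deficient mouse 5 had the highest value.

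Of 19 other genes of the secretory pathway, also picked after their values were seen, 18 had negative differences, with a median of -0.14. Among them 7 were called lower, where 0.684% of all genes were: Ero1b (-0.62), Gmppb (-0.42), Slc33a1 (-0.40), Ppib (-0.37), Sec11c (-0.36), Sec61b (-0.33) and Dolpp1 (-0.33). Of 7 Hsd3b genes, 6 were called lower, from Hsd3b5 (-3.54) and Hsd3b4 (-1.95) to Hsd3b3 (-0.92), and Hsd3b7, the bile acid enzyme gene of the family, gave 0.08. Most of these are near-identical copies, so their separate levels are uncertain.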
